A study of Mus musculus with 6 samples.

Results

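A set of 8 transcripts with catalogue-type symbols, out of 32285 genes listed in each count matrix, was described across cell types and libraries: Gm20642, Gm32250, A330015K06Rik, AC149090.1, 8030451O07Rik, A430027H14Rik, Gm32036 and Gm20713. They were picked by symbol because their ratio between offspring of running and of sedentary dams was large, or had opposite signs, in the 2 cohorts of the study. That ratio chose the members, so it is given here as a description and is not tested. The selection carried no numeric threshold, so there are no members just inside or outside one. All 8 symbols were found in the matrices, and all 8 passed the filter on low counts in pyramidal nuclei.

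The data were single-nucleus RNA-seq counts from the prelimbic part (PL) of the medial prefrontal cortex of male C57BL/6 mice (Taconic), 1 library per group and cohort, each library pooled from 3 males. Run offspring were reared by dams with a running wheel after birth, and Sed offspring by dams in standard cages. GH mice were group-housed after weaning and SI mice were isolated from weaning on. Cohort 1 held group-housed Run and Sed mice that had been through tube tests, and cohort 2 held Run and Sed mice of both housing conditions that had not. The cohort 1 males had been picked by their rank, at the top and bottom of their own groups, and no such choice is described for cohort 2. The study's methods give an age of about 4 months, whereas the sample labels give postnatal day 21. With 1 library per group and cohort, no Run to Sed difference has a replicate within its cohort.

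The libraries held 19134955 to 188952936 UMIs (unique molecular identifiers, counted RNA molecules), and 4997 to 9936 barcodes per library were kept as nuclei. The cohorts stood apart: nuclei held 19.0% and 32.9% of the UMIs in the cohort 1 libraries and 56.4% to 61.9% in cohort 2, and the median droplet below the nucleus minimum held 1070 and 1202 UMIs in cohort 1 against 82 to 302 in cohort 2. The median pyramidal nucleus held 6303 (Run) and 6817 (Sed) UMIs in cohort 1, 3613 and 1696 in the Run and Sed GH libraries of cohort 2, and 4275 and 3806 in its SI libraries. The Sed library was therefore the deeper one of its pair in cohort 1 and the shallower one in both pairs of cohort 2. Any 2 libraries shared at most 22 nucleus barcodes. All 7 pyramidal markers were above 0 in the pyramidal nuclei of every library.

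Mammalian genomes carry many long RNAs that do not code for protein. Many start inside or beside a protein-coding gene, often on its opposite strand (antisense transcripts), and others lie alone between genes (long intergenic RNAs). Such RNAs are mostly of low abundance, tend to stay in the nucleus, and are often far more restricted to particular cell types than mRNAs are, which makes nuclear RNA a favourable source for measuring them.

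By the GENCODE annotation of mm10, 5 members lie inside a protein-coding gene on its opposite strand. Gm20642 (chr14:39220071-39250430, plus strand) lies within Nrg3, which encodes a neuregulin ligand of the receptor ErbB4, and A330015K06Rik (chr3:65133060-65302685, minus strand) lies within Kcnab1, an auxiliary subunit of voltage-gated potassium channels. Gm20713 (chr14:115788144-115871278, minus strand) lies within Gpc5, a glypican of the cell surface, Gm32036 (chr13:20445286-20473490, minus strand) within Elmo1, a regulator of Rac and of engulfment, and A430027H14Rik (chr1:189343431-189344897, plus strand) within Kcnk2, the background potassium channel TREK-1. Gm20642 shares no exon bases with Nrg3, and the other 4 share between 107 and 604 exon bases with their host genes. Gm32250 (chr1:194989062-194995345, minus strand) is a long intergenic RNA opposite to the noncoding A330023F24Rik, and 8030451O07Rik (chr16:72226383-72234327, minus strand) is one that lies 73979 bases from Robo1, a receptor for Slit guidance cues. AC149090.1 (unplaced scaffold JH584304.1, 52190 to 59690, minus strand) is annotated as protein-coding, which goes against calling all 8 noncoding. Exons make up 0.523% of the span of Gm20713 and between 3.65% and 9.35% of those of Gm20642, Gm32250, A330015K06Rik and Gm32036, so reads from introns and exons of these transcripts cannot be told apart in a count per gene.

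The stretches around the starts of 3 members are shown because RefSeq gave their starts and their Run over Sed intervals lay on opposite sides of 0 in the 2 cohorts. RefSeq (GRCm38.p6) held start regions, 250 bases before to 50 after the start, for 5 of the 8 members. Capitals mark TATAAA (read on either strand) or CCAAT, the only ones of 5 searched motifs (the TATA box as TATAAA, the CCAAT box, the E-box as CACGTG, the GC box as GGGCGG and the cAMP response element as TGACGTCA, on both strands) found in them. TATAAA occurred in 14.2% and CCAAT in 37.9% of 27025 start regions, so both are common letters. The regions are Gm32250 chr1:194997866-194998165, A330015K06Rik chr3:65302636-65302935 and 8030451O07Rik chr16:72234278-72234577, all on the minus strand. That of Gm32250 lies upstream of the start given by GENCODE.
Gm32250: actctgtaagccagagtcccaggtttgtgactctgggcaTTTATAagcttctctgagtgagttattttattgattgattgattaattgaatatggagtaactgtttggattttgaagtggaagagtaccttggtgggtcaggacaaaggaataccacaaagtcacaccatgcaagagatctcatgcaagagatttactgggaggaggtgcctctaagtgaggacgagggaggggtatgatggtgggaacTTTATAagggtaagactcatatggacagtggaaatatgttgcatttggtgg
A330015K06Rik: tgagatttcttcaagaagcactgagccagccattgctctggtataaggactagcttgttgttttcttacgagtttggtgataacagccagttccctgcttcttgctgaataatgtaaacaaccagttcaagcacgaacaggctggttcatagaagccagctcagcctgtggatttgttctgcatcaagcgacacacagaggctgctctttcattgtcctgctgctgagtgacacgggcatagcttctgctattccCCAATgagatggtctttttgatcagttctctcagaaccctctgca
8030451O07Rik: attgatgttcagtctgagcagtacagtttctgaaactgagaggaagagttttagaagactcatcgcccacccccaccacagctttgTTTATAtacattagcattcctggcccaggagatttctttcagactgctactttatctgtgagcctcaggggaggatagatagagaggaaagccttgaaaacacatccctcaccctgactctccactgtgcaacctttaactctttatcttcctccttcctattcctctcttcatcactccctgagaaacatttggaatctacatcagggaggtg

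The last 80 bases of the Gm20642 transcript (GENCODE, mm10, chromosome 14, plus strand) are shown because the library chemistry primes on the poly(A) tail and Gm20642 gave the most counts among the noncoding members. Capitals mark the copy of AATAAA, the signal that directs polyadenylation, that lies nearest the end, and a further copy stands in lower case near the beginning of the stretch.
Gm20642: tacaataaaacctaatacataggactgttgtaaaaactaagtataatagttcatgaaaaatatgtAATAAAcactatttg
AATAAA or ATTAAA lay in the last 50 bases of 3 of the 7 members with an available transcript sequence (Gm20642, 8030451O07Rik and A430027H14Rik, each with AATAAA). Either of them lay there in 33.7% of all 141767 transcripts. At most 0.546% of the 31-base words of these 7 members occurred in transcripts of another gene. The words came from spliced transcripts, so the introns, whose reads were counted too, were not checked. For AC149090.1 no transcript sequence was available, so no part of it was checked, and its counts are uncertain in that respect too.

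Levels below are in CPM, the transcript's UMI count in a cell class of 1 library scaled to the same total of UMIs for every class and library. In pyramidal nuclei, the excitatory projection neurons of the cortex, 6 of the 8 members were higher in Run than in Sed in cohort 1 and lower in Run than in Sed in cohort 2. The same 6 were also lower in Run among the isolated mice of cohort 2. The share of all genes lower in Run there is not given, so this count is not read as particular to the members. The median of the 8 log2 ratios of Run over Sed was 1.12 in cohort 1, -1.18 in the GH pair of cohort 2 and -0.61 in its SI pair. Intervals for counting error (exact 95%) lay above 0 in cohort 1 and below 0 in the GH pair of cohort 2 for 5 members, Gm20642, Gm32250, A330015K06Rik, 8030451O07Rik and Gm20713. A430027H14Rik had the opposite signs, but its cohort 1 interval held 0, and over every barcode of the library it was higher in Run in cohort 1 (0.42, interval 0.11 to 0.72) as in the GH pair of cohort 2 (1.57, 1.06 to 2.12). AC149090.1 was lower in Run in all 3 pairs. Lower levels in Run in both cohorts were seen in 18.1% of all genes with at least 100 counts in each cohort. These intervals cover counting error only and leave out the difference between animals and between preparations.

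**Figure D1:**
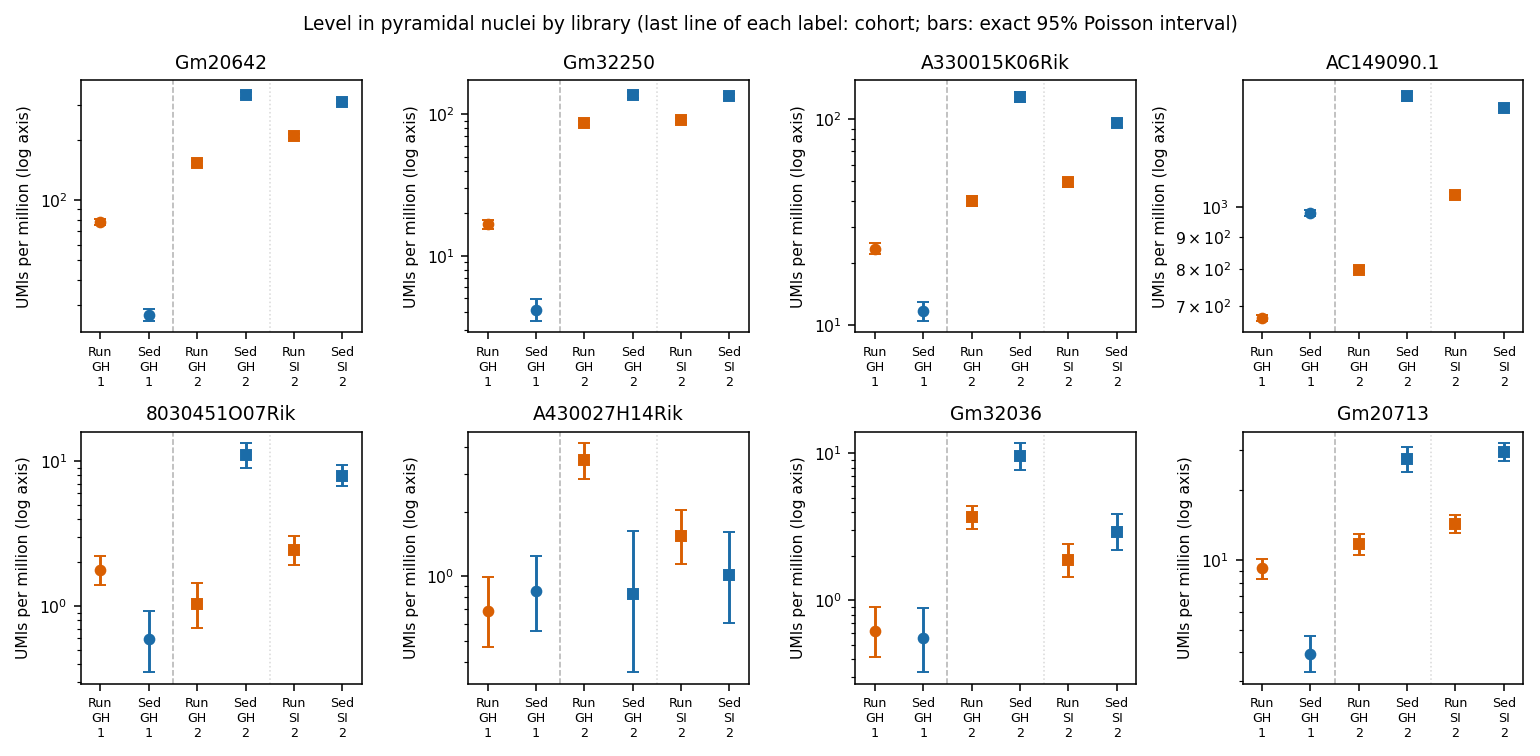
Level of each transcript in pyramidal nuclei (CPM, log axis) in the 6 libraries, Run in orange and Sed in blue, circles for cohort 1 and squares for cohort 2, with exact 95% Poisson intervals. Gm20642 was at 77.7 in Run and 26.7 in Sed of cohort 1 and between 153 and 337 in cohort 2, where both Sed libraries were above both Run libraries.

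Gm20642, the antisense transcript of Nrg3, was at 77.7 CPM in the Run GH and 26.7 in the Sed GH library of cohort 1. In cohort 2 its level was 153 (Run) and 337 (Sed) in the GH pair and 209 (Run) and 311 (Sed) in the SI pair. The cohorts did not overlap, Sed was lowest of all libraries in cohort 1, and both Sed libraries were above both Run libraries in cohort 2. On the log2 scale its Run over Sed ratio was 1.54 (95% interval 1.43 to 1.65) in cohort 1, -1.14 (-1.20 to -1.07) in the GH pair and -0.57 (-0.62 to -0.52) in the SI pair of cohort 2.
It was found in 33.0% and 16.9% of pyramidal nuclei of the Run and Sed libraries of cohort 1 and in 44.6% to 66.7% of those of cohort 2. With nuclei thinned to 1000 UMIs, which left out the 624 shallower ones of 4903 in Sed GH of cohort 2 and none elsewhere, these shares were 6.61% and 2.61% in cohort 1, and in cohort 2 16.0% and 29.2% in Run and Sed of the GH pair, and 20.1% and 27.1% in those of the SI pair. The unthinned GH shares of cohort 2 were nearly equal (44.8% and 44.6%), and the thinned ones were not.

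A330015K06Rik, the antisense transcript of Kcnab1, was at 23.5 (Run) and 11.7 (Sed) CPM in cohort 1. The cohort 2 levels were 40.1 (Run) and 129 (Sed) in the GH pair and 49.5 (Run) and 96.3 (Sed) in the SI pair. As with Gm20642, the order of Run and Sed was turned between the cohorts and the cohorts did not overlap. The log2 ratios of Run over Sed were 1.01 (0.84 to 1.19), -1.69 (-1.80 to -1.57) and -0.96 (-1.06 to -0.86) in the same order of pairs.

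Gm20713, the transcript inside Gpc5, had levels of 9.22 (Run) and 3.95 (Sed) CPM in cohort 1. In cohort 2 it was at 11.7 (Run) and 27.2 (Sed) in the GH pair and 14.3 (Run) and 29.3 (Sed) in the SI pair. Its Run libraries spanned only 9.22 to 14.3 over both cohorts, while its Sed libraries included both the lowest and the highest of all 6. The log2 ratios were 1.22 (0.92 to 1.53), -1.22 (-1.45 to -0.99) and -1.04 (-1.22 to -0.85).

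Gm32036, the antisense transcript of Elmo1, was scarce. It was at 0.622 (Run, 27 UMIs) and 0.555 (Sed, 17 UMIs) CPM in cohort 1 and at 3.68 (Run) and 9.59 (Sed) in the GH pair and 1.88 (Run) and 2.94 (Sed) in the SI pair of cohort 2. The cohort 1 pair could not be told apart (log2 ratio 0.16, interval -0.76 to 1.13), and that of the GH pair in cohort 2 was -1.38 (-1.79 to -0.97).
A430027H14Rik, the antisense transcript of Kcnk2, had 8 to 111 UMIs per library in pyramidal nuclei. Its levels in CPM were 0.691 (Run) and 0.849 (Sed) in cohort 1, 3.46 (Run) and 0.825 (Sed) in the GH pair and 1.54 (Run) and 1.02 (Sed) in the SI pair. Only Run GH of cohort 2 stood apart, with a log2 ratio over Sed of 2.07 (1.04 to 3.32), and the intervals of the other 2 pairs held 0. Droplets below the nucleus minimum had 1.38 (0.75 to 2.08) in that GH pair.

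Gm32250, the long intergenic RNA on chromosome 1, was at 16.7 (Run) and 4.15 (Sed) CPM in cohort 1 and at 86.9 (Run) and 137 (Sed) in the GH pair and 90.7 (Run) and 135 (Sed) in the SI pair of cohort 2. The 4 libraries of cohort 2 lay at 86.9 or above, whatever the rearing and housing, and both of cohort 1 at 16.7 or below. The log2 ratio of Run over Sed was 2.01 (1.74 to 2.29) in cohort 1, the largest of the 8 members there, and -0.66 (-0.75 to -0.56) and -0.57 (-0.65 to -0.49) in cohort 2.
8030451O07Rik, the long intergenic RNA near Robo1, had the largest drop of the 8 in the GH pair of cohort 2, with a log2 ratio of -3.42 (-4.03 to -2.85) from 33 UMIs in Run and 107 in Sed. It was at 1.77 (Run) and 0.588 (Sed) in cohort 1, 1.03 (Run) and 11.04 (Sed) in the GH pair and 2.43 (Run) and 7.97 (Sed) in the SI pair of cohort 2. Only the 2 Sed libraries of cohort 2 were high, and the Run libraries of the 2 cohorts overlapped.

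AC149090.1, the annotated protein-coding gene, kept 1 direction over all 3 pairs. Its levels were 672 (Run) and 981 (Sed) CPM in cohort 1 and 799 (Run) and 1493 (Sed) in the GH pair and 1045 (Run) and 1432 (Sed) in the SI pair of cohort 2. Run was below Sed in each pair (log2 ratios -0.55, -0.90 and -0.45), and the 2 cohorts overlapped. The cohort 1 value depended on which barcodes were counted: without the UMI minimum it was 0.23, and over every barcode of the library 0.06.
Other members depended on this choice in size. Over every barcode, free RNA included, the cohort 1 log2 ratio of Run over Sed was 0.82 for Gm20642, 1.37 for Gm32250, 0.59 for A330015K06Rik, 0.79 for 8030451O07Rik, 0.999 for Gm20713 and 0.82 for Gm32036. In the GH pair of cohort 2 they were -1.09, -0.59, -1.43, -2.74, -0.76 and -0.92 in the same order. The signs were those of pyramidal nuclei in both cohorts for these 6.

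**Figure D2:**
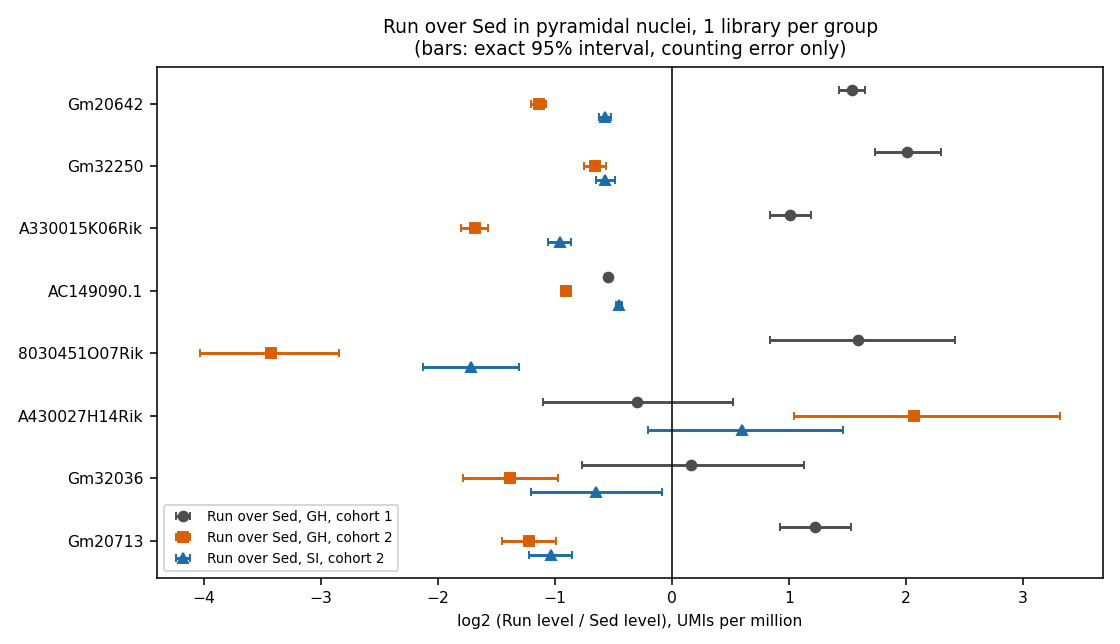
Log2 ratio of the Run over the Sed level in pyramidal nuclei for each transcript, in the GH pair of cohort 1 (grey circles), the GH pair of cohort 2 (orange squares) and the SI pair of cohort 2 (blue triangles), with exact 95% intervals for counting error. Gm20642, Gm32250, A330015K06Rik, 8030451O07Rik and Gm20713 lie right of 0 in cohort 1 and left of 0 in both pairs of cohort 2.

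The opposite order was not particular to these transcripts. Among 12431 genes with at least 100 pyramidal counts in the GH libraries of each cohort and above 0 in all 4, 54.9% had Run over Sed ratios of opposite sign in the 2 cohorts, and 15.5% were higher in Run in cohort 1 and lower in Run in cohort 2. Of the 1450 genes among them that have catalogue-type symbols like those of the members (61.9% of which had opposite signs), 38.3% had that second pattern and 13.4% were lower in Run in both cohorts. Changes of at least 0.5 on the log2 scale in each cohort, up in cohort 1 and down in cohort 2, were seen in 2.82% of the 12431 genes and in 18.1% (263) of the 1450. Of the 8 members, 5 reached 100 counts in each cohort, and 4 of them were among those 263.
Ranked by the cohort 1 minus cohort 2 difference of the log2 ratios, A330015K06Rik (2.70), Gm20642 (2.68), Gm32250 (2.67) and Gm20713 (2.44) stood at 57, 61, 62 and 94 of the 1450, and AC149090.1 (0.35) at 535. B230217J21Rik, named after its values were seen, led with 4.29 and was not among the members.
A reference list of 21 brain noncoding RNAs is given beside the members. The ratio chose the members and not the list, so unlike orders in the 2 are favoured by that choice. Of these 21, 9 were lower in Run in cohort 1 and higher in Run in cohort 2, and only Dlx6os1, an interneuron transcript, went up and then down like the members (0.43, interval 0.14 to 0.72, and -0.61, interval -1.33 to 0.15). The median log2 ratio of the list was -0.09 in cohort 1 and 0.13 in the GH pair of cohort 2. Among all genes 54.9% had opposite signs and 15.5% went up and then down. The counts of the list are not read as a result beside these shares.

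The order of Run and Sed was alike over neuron types for the abundant members and mixed for the scarce ones. These types split the same pooled libraries whose ratio chose the members, so they are not replicates. The share of all genes with 1 sign over every type is not given. The likeness is therefore a description and not a further result. Gm20642 was higher in Run in all 7 pyramidal clusters and all 3 interneuron types of cohort 1 and lower in Run in all of them in both pairs of cohort 2. In the pyramidal clusters its log2 ratios ranged from 1.40 to 2.04 in cohort 1 and from -1.31 to -0.99 in the GH pair of cohort 2. Gm32250 and A330015K06Rik also had 1 sign in all 7 pyramidal clusters in each pair, and among interneurons the only exception was 1 of 3 types for Gm32250 in the GH pair of cohort 2. Gm20713 was higher in Run in 5 of 6 pyramidal clusters in cohort 1, lower in 5 of 6 in the GH pair of cohort 2 and lower in 5 of 7 in its SI pair. For 8030451O07Rik, ratios could be formed in 2 clusters, and both were higher in Run in cohort 1 and lower in the GH pair of cohort 2. Gm32036 was higher in Run in only 1 of 3 clusters in cohort 1 and lower in 5 of 5 and 5 of 7 in the GH and SI pairs of cohort 2.

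Over all inhibitory nuclei, Gm20642, A330015K06Rik, 8030451O07Rik and Gm32250 had the signs of their pyramidal ratios of Run over Sed in all 3 pairs. These nuclei come from the same libraries as the pyramidal ones and do not replicate them. The log2 ratios of Gm20642 were 1.64 (1.25 to 2.04) in cohort 1, -1.14 (-1.33 to -0.95) in the GH pair and -0.76 (-0.91 to -0.61) in the SI pair of cohort 2. Those of A330015K06Rik were 1.38, -1.63 and -0.83, and those of 8030451O07Rik 1.69, -2.24 and -1.83. Gm32250 had 1.504 in cohort 1 but only -0.29 and -0.23 in cohort 2, with intervals reaching to -0.01 in both. Gm32036 gave 5 (Run) and 4 (Sed) inhibitory UMIs in cohort 1 and 21 and 5 in the GH pair of cohort 2, and intervals of both ratios (-0.45 and 0.10) held 0. Gm20713, which was highest in astrocytes, kept its order there, with 0.95 (0.59 to 1.31), -0.97 (-1.40 to -0.53) and -0.45 (-0.75 to -0.14).
In microglia Gm20642 had only 7 and 6 UMIs in cohort 1, where its interval held 0. It was lower in Run in both pairs of cohort 2 there, with log2 ratios of -1.34 and -0.87. In oligodendrocytes A330015K06Rik was lower in Run in cohort 1 (-1.09, interval -1.96 to -0.22), against its order in neurons. There were 62 and 26 such nuclei behind that value.

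The cell types in which each transcript was highest differed between members, and for several they were those of the host or nearest gene. Over 14 cell types, each the mean of the 6 libraries, Gm20713 and Gpc5 had a rank correlation of 0.98, 8030451O07Rik and Robo1 0.84, A330015K06Rik and Kcnab1 0.83, Gm32036 and Elmo1 0.78, Gm20642 and Nrg3 0.70, A430027H14Rik and Kcnk2 0.66, and Gm32250 and A330023F24Rik 0.48. These are descriptions over types from the same libraries, and scarce members rest on few counts per type.

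**Figure D3:**
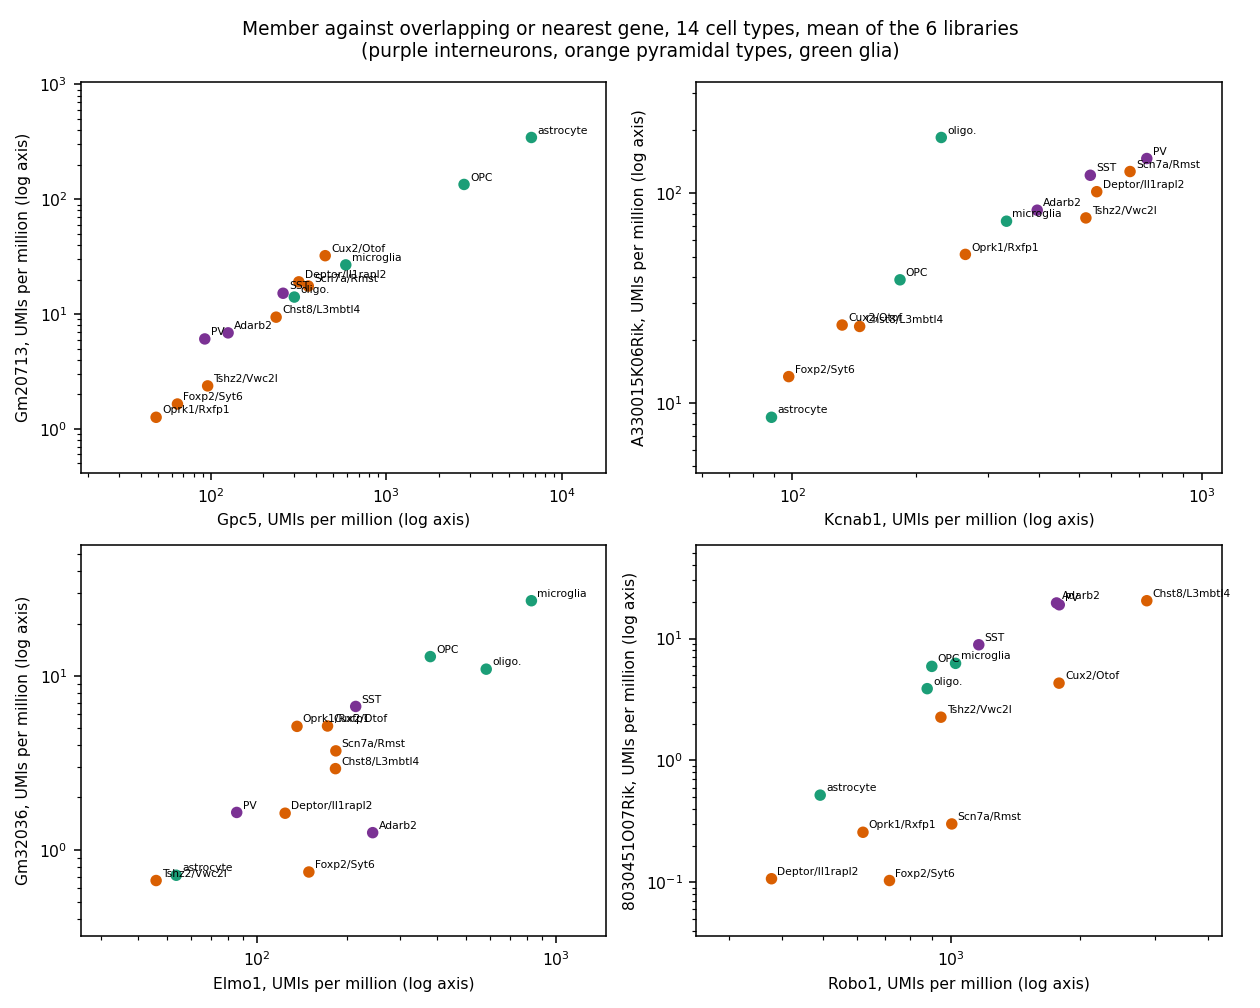
Level of 4 transcripts against the gene they overlap or, for 8030451O07Rik, a neighbouring gene (both CPM, log axes), 1 point per cell type, mean of the 6 libraries, with interneurons in purple, pyramidal clusters in orange and glia in green. Gm20713 and Gpc5 are both highest in astrocytes and next highest in oligodendrocyte precursors (OPC).

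Gm20713 was highest in astrocytes, the glial cells that express Gpc5 most. There its level was 167 (Run) and 86.6 (Sed) CPM in cohort 1 and 293 (Run) and 574 (Sed) in the GH pair and 402 (Run) and 548 (Sed) in the SI pair of cohort 2. It was above the pyramidal level in 6 of 6 libraries. Within pyramidal nuclei its median over the libraries was 31.4 in the Cux2/Otof cluster and 1.30 in the Oprk1/Rxfp1 cluster, and Gpc5 was at 442 and 23.5 there.
In pyramidal nuclei the 7 astrocyte markers summed to 654 (Run) and 537 (Sed) CPM in cohort 1 and to between 433 and 450 in the 4 libraries of cohort 2, with none of the 7 at 0. Gpc5, the host gene, is 1 of these 7. It stood at 391 (Run) and 340 (Sed) in cohort 1 and at 195 to 280 in cohort 2. The sum therefore does not measure astrocyte RNA apart from the host gene. The part of astrocyte RNA in the pyramidal values of Gm20713 was not tested.

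A330015K06Rik was above its pyramidal level in inhibitory nuclei in 6 of 6 libraries and had its lowest mean of the 14 types in astrocytes (8.58 CPM). Among pyramidal clusters its median level was 89.6 in Scn7a/Rmst and 86.4 in Deptor/Il1rapl2, and 8.60 in Foxp2/Syt6. Kcnab1 had medians of 655, 556 and 107 there. In PV interneurons, fast-spiking inhibitory cells, A330015K06Rik was at 90.5 (Run) and 25.6 (Sed) in cohort 1 and 92.0 (Run) and 299 (Sed) in the GH pair and 144 (Run) and 228 (Sed) in the SI pair of cohort 2. Oligodendrocytes carried the highest mean of the 14 types (185), without Kcnab1 being highest there.

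The pyramidal counts of 8030451O07Rik lay mostly in 1 cluster. It gave 303 of its 455 pyramidal UMIs in the Chst8/L3mbtl4 cluster, where its level was 9.02 (Run) and 2.72 (Sed) in cohort 1 and 6.89 (Run) and 54.1 (Sed) in the GH pair and 11.3 (Run) and 38.6 (Sed) in the SI pair of cohort 2. In the Foxp2/Syt6 and Deptor/Il1rapl2 clusters it gave 3 UMIs each over all libraries. Inhibitory nuclei had more of it than pyramidal nuclei in 6 of 6 libraries. Robo1 was also highest in Chst8/L3mbtl4.

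Gm32036 was highest in microglia, the immune cells of the brain, and so was Elmo1. Its microglial level was 35.1 in Run and 0 in Sed of cohort 1, where 23 nuclei were sampled, and 36.2 in Run of the GH pair of cohort 2 (Sed gave 5 UMIs there) and 24.7 (Run) and 36.4 (Sed) in the SI pair. The upper exact limit for the Sed library of cohort 1 was 30.5, and a difference was not detectable at this depth. The cohort 2 microglial ratio of Run over Sed was 0.27 (-1.13 to 2.00), unlike the pyramidal -1.38, and the difference between the 2 was not tested. The 6 microglial markers summed to 39.0 to 44.8 CPM in pyramidal nuclei of the 6 libraries, with none of the 6 at 0.

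Gm20642 and Gm32250 varied little between pyramidal clusters. Their medians over the libraries ranged from 156 to 215 and from 71.6 to 106 CPM over the 7 pyramidal clusters, stood at 143 and 90.8 in microglia and at 133 and 52.2 in oligodendrocytes, and were lowest in astrocytes with 26.3 and 31.7. The glial classes also held neuronal RNA. The 7 pyramidal markers summed to 1401 to 1889 CPM in microglia and 1200 to 1763 in oligodendrocytes, with 0 or 1 of the 7 at 0 per library, against 2230 to 2555 in pyramidal nuclei. Mean Nrg3 was 4188 in microglia and 3421 in oligodendrocytes against 5303 in pyramidal nuclei. The levels of Gm20642 and Gm32250 in microglia and oligodendrocytes are therefore not read as expression by glia. In astrocytes Gm32250 was above the level of the background droplets in 6 of 6 libraries, and the part of neuronal RNA in this was not tested. Gm20642 was above that level in astrocytes in 2 of 6 libraries only, so it is read as background there. Pyramidal nuclei stood no better for Gm32036, above the droplets in 2 of 6 libraries, and for Gm20713 in 3 of 6, so their pyramidal levels are not separated from background in the other libraries. 8030451O07Rik was above the droplets in the 4 libraries of cohort 2 and below them in both of cohort 1, where the droplets held 1.83 (Run) and 1.30 (Sed) CPM against 1.77 and 0.588 in pyramidal nuclei. After subtraction of free RNA its cohort 1 log2 ratio of Run over Sed was 1.34 (0.57 to 2.18). Gm20642 and A330015K06Rik were above the droplets in 5 of 6 libraries, all but Sed of cohort 1, and Gm32250 and AC149090.1 in 6 of 6. A430027H14Rik was above its pyramidal level in astrocytes in 6 of 6 libraries, but on 1 to 12 UMIs each. In pyramidal nuclei it was below the background droplets in 6 of 6 libraries, so its pyramidal counts are read as background and not as expression.

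Background droplets, barcodes with 30 UMIs up to the nucleus minimum, carried the members too. The log2 ratio of nuclei over droplets for Gm20642 was 2.996 to 3.12 in cohort 2. In cohort 1 it was 0.70 in Run and -0.43 in Sed, so that the Sed nuclei held less of it than their own droplets. Gm32250 had 2.90 to 3.40 in cohort 2 and 1.69 and 0.29 in cohort 1. Gm32036 was between -0.27 and 0.86 in all 6 libraries, with an interval above 0 only in Sed GH of cohort 2 (0.86, 0.31 to 1.43). Gm20713 was above it in astrocytes in 6 of 6 libraries.
Gm20642 and Gm32250 had their Run over Sed order in the droplets as well, with smaller sizes than in nuclei in cohort 1. For Gm20642 the droplet log2 ratios were 0.35, -1.09 and -0.70 in the 3 pairs, and for Gm32250 0.51, -0.90 and -0.52. 8030451O07Rik also had its order there, with 0.49, -1.21 (interval -2.40 to 0.02, from 15 and 12 UMIs) and -1.81. A430027H14Rik was higher in Run in the droplets of each pair, with 0.55, 1.38 and 0.47 (-0.02 to 0.98). Other members followed less closely. A330015K06Rik had 0.16, -0.31 (interval -0.62 to 0.01) and -0.64 in the droplets, Gm20713 0.62, -0.37 and 0.06 (-0.18 to 0.30), and Gm32036 0.74, -0.53 (-1.11 to 0.07) and 0.01 (-0.54 to 0.57). AC149090.1 was higher in Run in the droplets of cohort 1 (0.33), unlike in its nuclei. After subtraction of free RNA the pyramidal ratios of Gm20642 were 1.78, -1.16 and -0.58.

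**Figure D4:**
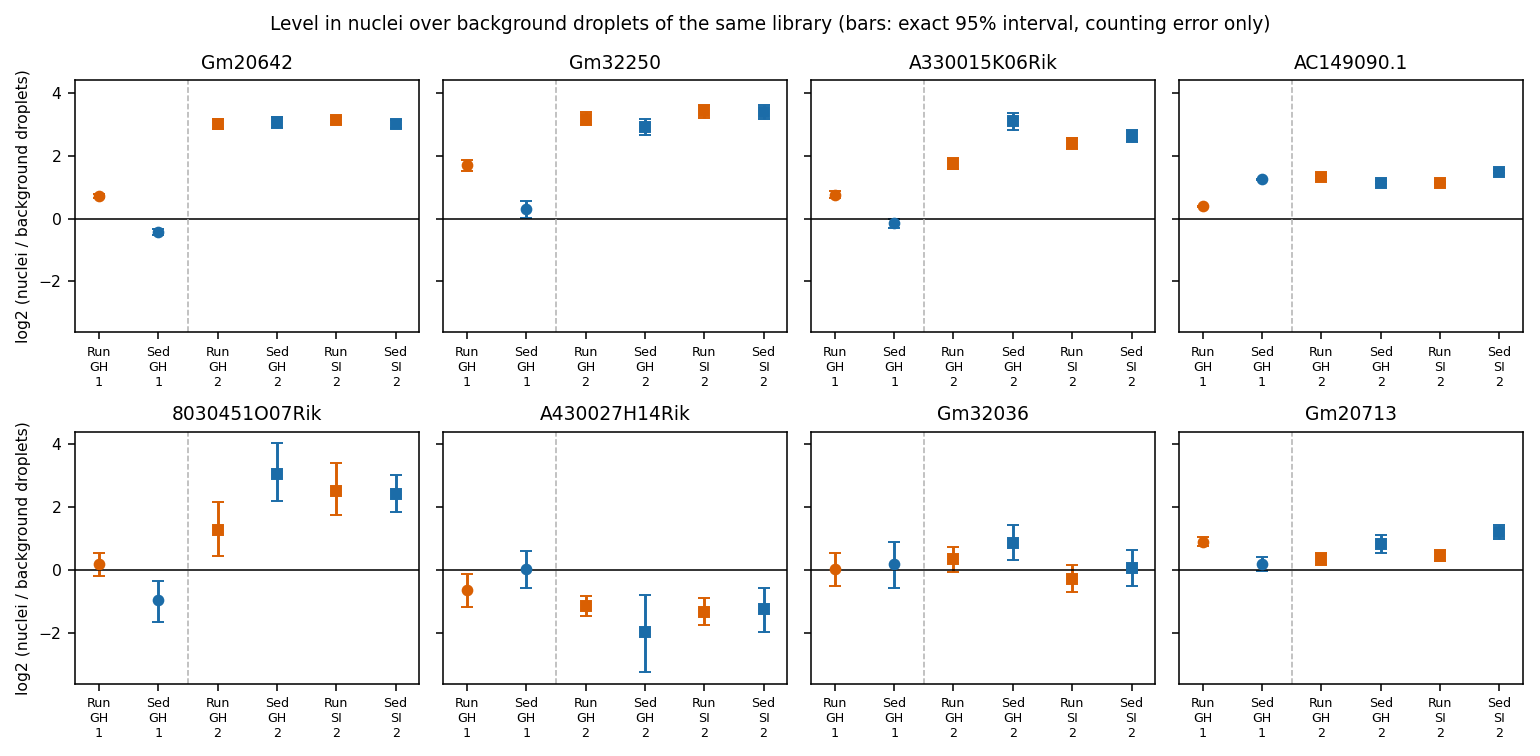
Log2 ratio of the level in nuclei over that in background droplets of the same library, for each transcript in the 6 libraries, with exact 95% intervals for counting error (Run orange, Sed blue, circles cohort 1, squares cohort 2). Gm20642 lies between 2.996 and 3.12 in the 4 libraries of cohort 2 and at 0.70 and -0.43 in cohort 1.

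Other properties of the libraries differed between Run and Sed too. Malat1, an abundant nuclear RNA, was at 27266 and 30534 CPM in pyramidal nuclei of cohort 1 and at 92964 to 118086 in cohort 2. Within cohort 2 it was higher in both Sed libraries (113452 and 118086) than in both Run libraries (92964 and 93480), as Gm20642 was, and in cohort 1 it was higher in Sed, unlike Gm20642. Mitochondrial transcripts were at 317 and 135 in cohort 1 and at 2890 and 1111 in Run and Sed of the GH pair and 2899 and 1514 in those of the SI pair of cohort 2, higher in Run in each pair. Meg3, a further nuclear RNA, did turn between cohorts, against the order of the members, with 10050 (Run) and 11549 (Sed) in cohort 1, 10435 and 8813 in the GH pair and 10839 and 8821 in the SI pair of cohort 2. Median depth per pyramidal nucleus was lower in whichever library of a pair had more Gm20642. With nuclei thinned to 1000 UMIs and the same 624 left out, the log2 ratios of Gm20642 were 1.46, -1.03 and -0.50 and those of A330015K06Rik 1.07, -1.61 and -0.88. The part of the other properties in the result was not tested.

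Isolation was tested over the 6 libraries in a fit with cohort and rearing as terms (edgeR quasi-likelihood test over 17962 genes, Benjamini-Hochberg adjusted). In pyramidal nuclei 0 of the 8 members and 0 genes (0.0% of those tested) passed an adjusted p of 0.05 between SI and GH. At an unadjusted p under 0.05 there were 172 genes and 1 member, and DESeq2 also called 0 genes and 0 members. The member was Gm32036, with a log2 change of -1.35 ± 0.39 (SE) and an adjusted p of 1.00 by edgeR. In inhibitory nuclei 0 of the 8 and 0 of 13349 genes (0.0%) passed by edgeR, with 0 members and 181 genes at an unadjusted p under 0.05, and DESeq2 was not run there. The other 7 members had log2 changes in pyramidal nuclei from -0.73 (A430027H14Rik) to 0.20 (Gm20713). This fit treats the opposite Run over Sed ratios of the 2 cohorts as spread, which by construction makes the errors of these members wide (0.59 for Gm20642 and 0.97 for 8030451O07Rik).
In the 4 libraries of cohort 2 alone, which leave 1 residual degree of freedom, 54 of 17069 genes (0.316%, with 0.193% lower in SI) and 1 member were called by edgeR. Gm32036 fell by 1.31 on the log2 scale (SE 0.23, edgeR adjusted p = 0.000708). It was lower in SI in both rearing groups, from 3.68 to 1.88 CPM in Run and from 9.59 to 2.94 in Sed. Both GH libraries here entered the Run over Sed ratio that chose the members. That choice can favour a fall from the high Sed GH level, so the call is not read as a result of isolation. The pyramidal level of Gm32036 was above the background droplets in only 2 of 6 libraries. The droplets had log2 ratios of SI over GH of -0.17 (-0.64 to 0.30) in Run and -0.70 (-1.36 to -0.04) in Sed. After subtraction of free RNA the pyramidal ratios were -1.08 and -1.82. Elmo1, the host gene of Gm32036, had -0.28 ± 0.08 in the same fit, with an edgeR adjusted p of 0.18. A fit without 1 of the cohort 1 libraries leaves the other to set the cohort term. Its housing result rests on the same 4 libraries of cohort 2, so it is not a further test. For Gm20642 SI was above GH in Run (0.45, interval 0.40 to 0.50) and below it in Sed (-0.12, -0.18 to -0.05). Of the 7 members with at least 100 counts in each housing pair, 5 had opposite signs of SI over GH in Run and Sed, against 52.4% of 12811 such genes, and 4 had both counting intervals apart from 0, against 5.24%. In 2 of these 4 the direction in Sed turned with the choice of nuclei: with at least 1000 genes per nucleus it was 0.0219 for Gm20642 and 0.0223 for AC149090.1, and after thinning 0.37 for AC149090.1. The housing ratios share the GH libraries of cohort 2 with the Run over Sed ratio that chose the members. That choice favours unlike housing ratios in Run and Sed, so neither share is read as a result about the members.

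The cohorts differ in behavioural testing, in the choice of animals and in depth at once, so that these cannot be told apart. The fitted change from cohort 1 to cohort 2 in pyramidal nuclei was upward for all 8 members, with a median of 1.56 (log2). Over all 17962 genes the median was -0.006, and no median for the genes with catalogue-type symbols is given. The GH libraries in this fit also made the ratios that chose the members, so the rise is not independent of that choice. Between those libraries the median of the members was 0.87 in Run and 3.56 in Sed. Between the GH libraries themselves, 7 members rose and 1 fell in Run (8030451O07Rik, -0.78). In Sed 7 rose and 1 fell as well (A430027H14Rik, -0.04). Of the 8, 2 passed the edgeR test (adjusted p under 0.05), against 38.3% of the 17962 genes in either direction and 20.3% upward. Gm32250 was higher by 3.25 ± 0.67 (SE, edgeR adjusted p = 0.0132) and Gm32036 by 3.13 ± 0.43 (edgeR adjusted p = 0.0037). For Gm32036 the background droplets alone had cohort 2 over cohort 1 ratios of 1.93 in Run and 3.19 in Sed (log2, GH), and after subtraction of free RNA the fitted change in pyramidal nuclei was 3.32 ± 0.44 (edgeR adjusted p = 0.00899). Those droplet ratios of Gm32250 were 1.01 and 2.41, against 2.38 and 5.05 in pyramidal nuclei. Gm20642 (2.00 ± 0.64, edgeR adjusted p = 0.0525) and A330015K06Rik (1.82 ± 0.63, edgeR adjusted p = 0.0646) lay just outside. Without the Run library of cohort 1, 7 members were called, against 49.5% of all genes, and without its Sed library 5, against 50.3%. Each of these fits leaves 1 library in cohort 1, so that cohort has no spread of its own. The level of that library entered the Run over Sed ratio that chose the members. These counts are therefore not read as a result about the members. With no filter on low counts 4 of 8 were called (26.8% of genes), after thinning 4 of the 7 tested (39.9%), and without Run GH of cohort 2 4 of 8 (16.2%). In inhibitory nuclei 5 of the 8 were called, against 35.3% of 13349 genes (19.5% upward), with Gm20642 at 2.14 ± 0.43 (edgeR adjusted p = 0.0022) and A330015K06Rik at 1.504 ± 0.46 (edgeR adjusted p = 0.0215). In astrocytes 4 members were tested and 2 called, against 30.1% of 9375 genes (15.8% upward), with Gm32250 at 2.06 and Gm20713 at 1.38 (edgeR adjusted p = 0.000506 and 9.76e-05). Neuronal RNA in the astrocyte class differed between the cohorts: the 7 pyramidal markers summed to 1141 and 902 CPM in cohort 1 and 485 to 808 in cohort 2, and Nrg3 was at 2906 and 2749 against 455 to 1036. Its part in these values was not tested. The 6 inhibitory markers also differed between cohorts in pyramidal nuclei, with sums of 194 and 179 CPM in cohort 1 and 34.2 to 51.7 in cohort 2, none of the 6 at 0. Their part in the result was not tested.

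The host genes did not all follow the members between cohorts. Gpc5 (-0.93 ± 0.18, edgeR adjusted p = 0.0112) and Robo1 (-0.57 ± 0.12, edgeR adjusted p = 0.0127) fell in cohort 2, and Nrg3 (-0.19 ± 0.13), Kcnab1 (-0.11 ± 0.13) and Elmo1 (0.12 ± 0.16) did not pass the test. Kcnk2 rose by 0.78 ± 0.11 (edgeR adjusted p = 0.00385). Of 17 host and neighbouring genes tested, 3 rose and 4 fell, a share near the 38.3% of all genes. The 3 that rose included Nrg3os, a further antisense transcript of Nrg3, with 2.35 ± 0.59 (edgeR adjusted p = 0.0248), close to the 2.00 of Gm20642. In the reference list of 21 noncoding RNAs, 4 rose and 11 fell. The largest changes were in Gm42418 (-4.72 ± 0.15, edgeR adjusted p = 0.000455) and Gm26917 (-2.36 ± 0.14, edgeR adjusted p = 0.000464), which have catalogue-type symbols themselves. Between SI and GH 0 of the 21 passed, 3 had an unadjusted p under 0.05, and the largest values belonged to Sox2ot and Gm42418.
The host genes Nrg3, Kcnab1 and Gpc5 had smaller ratios within pairs than their members. The log2 ratios of Run over Sed in pyramidal nuclei were 0.27, 0.07 and 0.05 for Nrg3 and 0.20, -0.13 and 0.13 for Kcnab1 in the 3 pairs. Those of Gpc5 were 0.20, -0.31 and -0.37, with the signs of Gm20713. Elmo1 had 0.18, -0.34 and 0.06, the first close to the 0.16 of Gm32036, and A330023F24Rik had 0.13, -0.20 and -0.10, with the signs of Gm32250. Robo1 (0.19, 0.01 and 0.06) and Kcnk2 (0.10, 0.29 and 0.07) did not turn sign.

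Over the 6 libraries, the genes most like each member in pyramidal nuclei were sought among 13194 others with at least 100 counts in each cohort, here with the SI libraries counted too, by the root mean square difference of centred log2 levels. For Gm20642 these were Far1os (0.10) and Gm20275 (0.12), against a median of 1.26 over all genes compared. A330015K06Rik was nearest to Plxna4os3 (0.10) and A230004M16Rik (0.16), Gm20713 to 4930532I03Rik (0.08) and Gm47523 (0.10), and Gm32250 to 4930590L20Rik and Apobec4 (both 0.26). For 8030451O07Rik they were Gm34544 (0.25) and Gm47423 (0.29), and for Gm32036 Gm6994 (0.39) and Gm49003 (0.40). Only AC149090.1 (Timm44, 0.10, and Pdcd11, 0.12) and A430027H14Rik (Gpr162 and Crlf2, both 0.17) had named coding genes as both nearest. Among the members themselves the nearest pair was A330015K06Rik and Gm20713 (0.29), followed by Gm20642 and A330015K06Rik (0.31).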

How the data were processed

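Raw 10x Chromium 3′ (V3) matrices held counts, whole UMI counts per gene and barcode that the authors deposited for every barcode, empty droplets included. The submitters' processing notes name Cell Ranger 6.0.0 and mm10, while the matrix headers name Cell Ranger 4. Per the study's methods, the reference included introns, so intronic reads were counted.

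Nuclei were barcodes with 500 to 4000 genes, at most 1% mitochondrial UMIs and at least the 99th percentile of the largest barcodes' UMIs divided by 10 (the UMI minimum). The cohorts were clustered apart (scanpy 1.11.5, 3000 variable genes without the 8 members, 35 components, Leiden resolution 0.6). Classes were named from marker lists and pyramidal clusters by leading genes. Clusters with mixed or quality genes were left unnamed. Doublets were marked and removed only as an alternative.

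Counts were summed per class and library. Ratios have exact conditional intervals (95%), and no fold was formed at 3 UMIs or fewer on both sides or at 0 on 1 side. edgeR 4.0.16 (quasi-likelihood, cohort, rearing and housing terms, 2 residual degrees of freedom) was tested on simulated data. DESeq2 1.42.0 was an alternative. P-values measure the spread between pooled libraries only. Same-numbered Run GH and Sed GH libraries share a cohort, a labelled batch, and their deviations correlated at 0.62 over 17962 genes, so cohort stayed as the block. Named genes were the members, their overlapping and neighbouring genes, the 2 most alike to each, and the 2 with the largest change in a reference list. The members and lists were chosen with earlier results of these data known.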

Additional observations from a re-analysis of the deposited data

Results flagged for a closer look

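Of the 8 members, 5 had Run over Sed ratios (log2, GH, pyramidal nuclei) of opposite sign in the 2 cohorts, with counting intervals on opposite sides of 0. Gm20642 had 1.54 in cohort 1 and -1.14 in cohort 2, Gm32250 2.01 and -0.66, A330015K06Rik 1.01 and -1.69, 8030451O07Rik 1.59 and -3.42, and Gm20713 1.22 and -1.22. The pyramidal level was below that of the background droplets in Sed of cohort 1 for Gm20642 and A330015K06Rik, in both libraries of cohort 1 for 8030451O07Rik, and in 3 of 6 libraries for Gm20713. With 1 library per group and cohort the difference between the cohorts was not tested, and this pattern chose the members.

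Within cohort 2, the ratio of SI over GH had opposite signs in Sed and in Run mice for 6 members, and for 4 of them both counting intervals lay apart from 0 (5 and 4 of the 7 with at least 100 counts in each housing pair, against 52.4% and 5.24% of all such genes). It was -0.12 in Sed and 0.45 in Run for Gm20642, -0.42 and 0.31 for A330015K06Rik, -0.06 and 0.39 for AC149090.1, and -0.47 and 1.24 for 8030451O07Rik. For Gm32250 both intervals held 0, and for A430027H14Rik that in Sed did. In Sed the sign turned for Gm20642 (0.0219) and AC149090.1 (0.0223) with at least 1000 genes per nucleus, and for AC149090.1 after thinning (0.37). These differences were not tested either. They share the GH libraries of cohort 2 with the Run over Sed ratio that chose the members, so the shares above are not read as a result.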

How the results depend on the processing

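The count of members with opposite Run over Sed ratios in the 2 cohorts was 7 of 8, A430027H14Rik and Gm32036 with cohort 1 intervals that held 0 included, and lay between 6 and 8 under the other barcode, doublet, free RNA, thinning and clustering choices. It was 4 when at least 200 counts were asked for in each cohort, since only such members were then counted. Called values turned sign for AC149090.1 in cohort 1 (0.23 without the UMI minimum and 0.0575 over every barcode) and between SI and GH in Sed mice (0.0223 with at least 1000 genes per barcode and 0.37 after thinning). Gm20642 had 0.0219 between SI and GH in Sed mice with at least 1000 genes. Over every barcode, 8 of the 16 GH ratios of Run over Sed moved beyond their counting interval and 1 reversed. The cause was not tested.

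For isolation, 54 genes and 1 member were called in the cohort 2 libraries only, against 0 and 0. The GH libraries there entered the ratio that chose the members, so the call of the member is not read as a result. Leaving out 1 library in turn gave 0 to 85 genes and 0 to 1 member, with the calls only where a cohort 1 library was left out (84 without Run, 0.452%, and 85 without Sed, 0.457%), which removes the opposite Run over Sed ratio of cohort 1 from the spread. Without the replicate block (no cohort term), 0 genes and 0 members were called. Between cohorts, 4 of 8 members were called with no filter on low counts (26.8% of genes) and 4 of 7 tested after thinning (39.9%), against 2, and 4120 genes in the group-housed libraries only, against 6871. Leaving out 1 library gave 3010 to 9359 genes and 2 to 7 members, with 4 members and 3010 genes (16.2%) without Run GH of cohort 2, and a lone library left in cohort 1 was assumed to vary like the others.

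In the scarce members (A430027H14Rik and Gm32036), depth limits every ratio, and each Run over Sed ratio rests on 2 pooled libraries.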
